A study of Mus musculus with 12 samples.

Results

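The genes described here are those that drive and mark the cell cycle and DNA replication in MC3T3-E1 cells, an osteoblast-like line derived from mouse skull bone. They were chosen by symbol: A, B, D and E cyclins, their kinases and kinase inhibitors, E2f factors, replication proteins, mitotic regulators, centromere proteins, and every Kif symbol of the kinesin family. The symbols took 107 of the 10225 genes named on the array, on 234 of 28704 probes: 19 of G1, 33 of S phase, 41 of G2 and mitosis, and 14 other kinesins, most of which carry cargo rather than chromosomes. Of these, 99 genes had enough values to be tested, and 92 of the 99 had a value in all 12 samples. No measured value entered the choice of symbols, but the grouping and the lists were drawn up with earlier results of these data known.

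The study asked how the transcripts of these cells respond to fluid shear. The 6 shear samples came from confluent monolayers on glass that met pulsatile flow for 5 h, at 1 Hz and a mean shear stress of 5 dyn per square centimetre. The 6 control samples came from monolayers kept without flow in the same kind of set-up. The labels name no genetic change in any sample. All cells were grown in medium with 5% serum and reached confluence, and the circulating medium held 1% serum. The labels do not say which serum level the static controls stood in, so a part of serum in any difference between the groups was not tested. RNA was labelled with Cy5 in replicates 1, 3 and 5 and with Cy3 in replicates 2, 4 and 6 of each group, and hybridised in pairs of like samples to 6 spotted arrays. Within each group, samples 1 with 2, 3 with 4 and 5 with 6 are treated as array partners, which the labels imply but do not state. The labels do not say that samples are separate cultures, so each p-value measures only how these samples vary, and that variation may be technical. In such bulk RNA, fewer cells in a phase and less RNA per cell cannot be told apart.

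A cell commits to division in G1, when D and E cyclins with their kinases inactivate the retinoblastoma protein and free E2f factors to switch on the replication genes. Origins are loaded with the Mcm helicase by the origin recognition complex and fired in S phase. A and B cyclins with Cdk1 then drive G2 and mitosis, when centromere proteins and mitotic kinesins move the chromosomes. Many genes of G1 and S phase hold E2f elements near their start, while many of G2 and mitosis hold a cell cycle genes homology region (CHR) and CCAAT boxes bound by NF-Y.

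Those elements could be read in the members' own promoters, each taken from RefSeq on build GRCm38.p6 as the 300 bases from 250 before to 50 after a start site. The table matched 93 of the 107 genes, with 112 promoters. The 6 printed here belong to genes whose values recur in the results, 2 of S phase and 4 of G2 and mitosis. Capitals mark an E2F element (TTTCGCGC, TTTGGCGC or GGCGGGAA), a CHR (TTTGAA or TTCGAA) or CCAAT, each on either strand, so ATTGG is a CCAAT read from the other strand. The Cenpj promoter has no match to any of these letters, and the first E2F stretch of Mcm6 is 2 overlapping matches.
Pcna (chr2:132253131-132253430, minus strand): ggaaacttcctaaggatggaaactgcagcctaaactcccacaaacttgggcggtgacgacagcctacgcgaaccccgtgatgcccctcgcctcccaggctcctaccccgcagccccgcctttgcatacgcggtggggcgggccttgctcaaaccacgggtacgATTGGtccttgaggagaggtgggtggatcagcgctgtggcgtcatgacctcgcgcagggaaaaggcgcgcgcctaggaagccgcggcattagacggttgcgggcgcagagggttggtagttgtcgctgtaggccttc
Mcm6 (chr1:128359656-128359955, minus strand): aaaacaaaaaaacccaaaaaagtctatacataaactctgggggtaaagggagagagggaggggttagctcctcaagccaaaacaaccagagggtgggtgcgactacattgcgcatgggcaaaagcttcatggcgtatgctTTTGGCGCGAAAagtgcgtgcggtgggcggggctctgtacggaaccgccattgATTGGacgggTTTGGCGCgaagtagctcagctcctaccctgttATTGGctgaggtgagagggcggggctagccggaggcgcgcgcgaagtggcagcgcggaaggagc
Cdk1 (chr10:69352863-69353162, minus strand): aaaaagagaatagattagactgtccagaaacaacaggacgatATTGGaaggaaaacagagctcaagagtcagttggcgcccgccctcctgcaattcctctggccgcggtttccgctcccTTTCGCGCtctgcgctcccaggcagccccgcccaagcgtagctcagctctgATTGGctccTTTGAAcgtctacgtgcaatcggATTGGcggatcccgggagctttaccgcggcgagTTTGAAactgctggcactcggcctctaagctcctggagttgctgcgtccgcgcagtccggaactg
Cdc20 (chr4:118437294-118437593, minus strand): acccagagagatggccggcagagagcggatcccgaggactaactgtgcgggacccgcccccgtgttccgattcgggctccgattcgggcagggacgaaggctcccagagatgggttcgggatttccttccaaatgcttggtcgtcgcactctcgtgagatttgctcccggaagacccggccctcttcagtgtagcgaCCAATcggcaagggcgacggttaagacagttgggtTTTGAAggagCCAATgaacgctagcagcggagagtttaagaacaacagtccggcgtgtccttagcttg
Cenpf (chr1:189688037-189688336, minus strand): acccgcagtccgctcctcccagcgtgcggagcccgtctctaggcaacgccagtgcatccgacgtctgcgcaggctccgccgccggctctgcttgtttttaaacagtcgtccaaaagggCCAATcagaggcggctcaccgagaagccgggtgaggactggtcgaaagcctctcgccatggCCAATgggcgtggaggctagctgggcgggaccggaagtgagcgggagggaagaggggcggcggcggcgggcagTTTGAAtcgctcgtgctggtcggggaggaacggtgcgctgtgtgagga
Cenpj (chr14:56571797-56572096, minus strand): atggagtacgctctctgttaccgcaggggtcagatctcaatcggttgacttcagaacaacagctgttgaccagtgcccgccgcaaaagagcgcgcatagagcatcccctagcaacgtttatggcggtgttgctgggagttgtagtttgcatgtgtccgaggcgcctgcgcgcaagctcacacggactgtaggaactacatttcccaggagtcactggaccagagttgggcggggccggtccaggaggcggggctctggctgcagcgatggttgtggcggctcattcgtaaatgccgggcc

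The phases differed in these elements. An E2F element stood in 13 of the 37 S phase promoters (35.1%), against 3 of 18 in G1 (16.7%), 7 of 43 in G2 and mitosis (16.3%) and 2.96% of all 32851 promoters of the same length. A CHR and a CCAAT stood together in 22 of the 43 promoters of G2 and mitosis (51.2%), against 3 of 37 in S phase (8.11%) and 7.53% of all. Of the 14 promoters of the other kinesins, none held an E2F element and 1 held a CHR with a CCAAT. A match describes these letters only, and its absence says nothing about a factor.

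**Figure D1:**
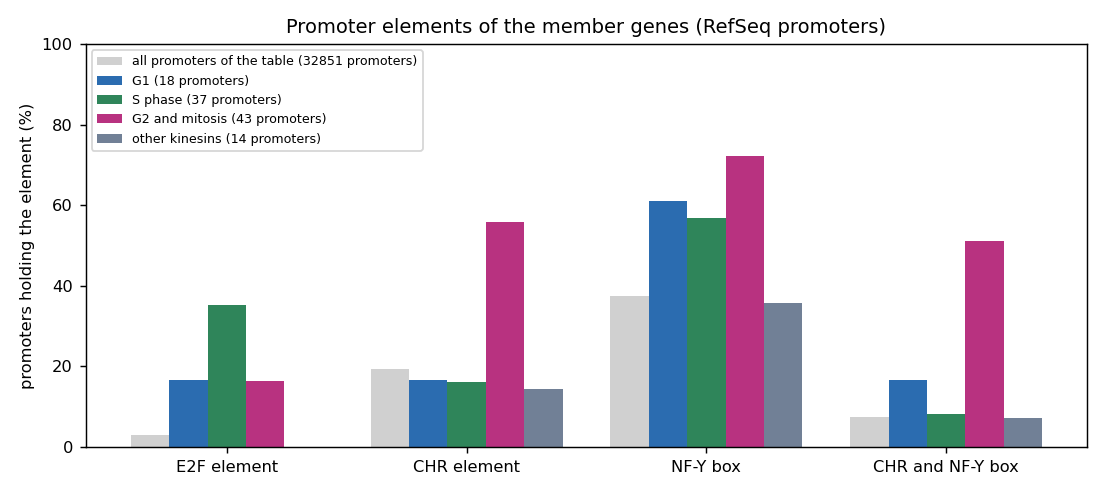
Share of promoters (vertical axis, percent) that hold each element, for all promoters of the RefSeq table (grey) and for the members by group. E2F elements stand at 35.1% in S phase against 2.96% of all promoters, and the pair of CHR and NF-Y box at 51.2% in G2 and mitosis against 7.53%.

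The deposited values are log2 signals relative to the median of the feature's block of spots in the same sample, so a shift shared by all genes cannot be seen. Between 18434 features (control 4) and 23790 (control 1) had a value. Pearson correlations over features were 0.953 to 0.982 for samples of the same array, 0.871 to 0.935 for samples of the same group on other arrays, and 0.846 to 0.922 across groups. One array stood apart: that of control 3 and 4 was the lowest of the control arrays for 59.5% of all features. Of the osteoblast markers, Sparc, Col1a1, Col1a2 and Alpl had a value in all 12 samples, and Pth1r had one in 1 shear sample. The defining Runx2, Sp7 and Bglap are not named on the array. By mean signal Sparc stood at percentile 99.6 of all features, Col1a2 at 98.0, Col1a1 at 78.3 and Alpl at 27.6. Tested markers of the other cell types ran from 3.05 (Eng) to 96.2 (Tnnt1), so these levels do not check the label. None of the 26 tested markers of osteoblasts and of endothelial, macrophage, fat, cartilage and muscle cells passed the test, against 1.49% of all features. Each list's summed signal overlapped between the groups, while 7.36% of all single features had groups that did not overlap. A missing value added nothing to a sum, and Tnnt1 of the muscle list had a value in only 4 shear samples.

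Flow left nearly all measured cell cycle genes without a change that passed the test. With limma and Benjamini-Hochberg adjustment over 15601 features, 1 of 99 genes was called at an adjusted p under 0.05, against 1.49% of all features (1.28% higher, 0.205% lower). That gene was Cenpj, which fell. At an unadjusted p under 0.05 there were 7 genes higher and 6 lower under shear, 13.1% of the members against 13.8% of all features (10.4% higher, 3.39% lower). Control and shear values did not overlap for 4 genes that were higher (Pcna, Orc6, Kif2a and Kif1b) and for Cenpj, while 7.36% of all features had groups that did not overlap (5.76% above, 1.6% below the controls). Changes were within 0.5 on the log2 scale for 75 of 99 genes (75.8%), close to the 74.1% of all features, and the median standard error (SE) of a member was 0.31.

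The groups did not sit at the same place. The median log2 change, shear minus control, was 0.14 over the 17 genes of G1, 0.14 over the 31 of S phase, -0.17 over the 39 of G2 and mitosis and -0.053 over the 12 other kinesins, beside 0.11 over all features. In G2 and mitosis 25 of 39 genes had a change below 0, so 35.9% lay above 0, against 61% of all features. In G1 it was 7 of 17 below 0 and in S phase 13 of 31. Another centring, on those features that have all 12 values, or cyclic loess, moved the median of all features to -0.017 or -0.013. The median of G2 and mitosis moved with it, to -0.31 and -0.28, with 33 of 39 genes below 0 under each. The medians of G1 and S phase became 0.0065 and 0.0020 with that centring and turned to -0.044 and -0.020 with loess. Under each of the 32 alternatives the median of G2 and mitosis stayed below that of all features. These medians are a description of the lists and carry no test.

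**Figure D2:**
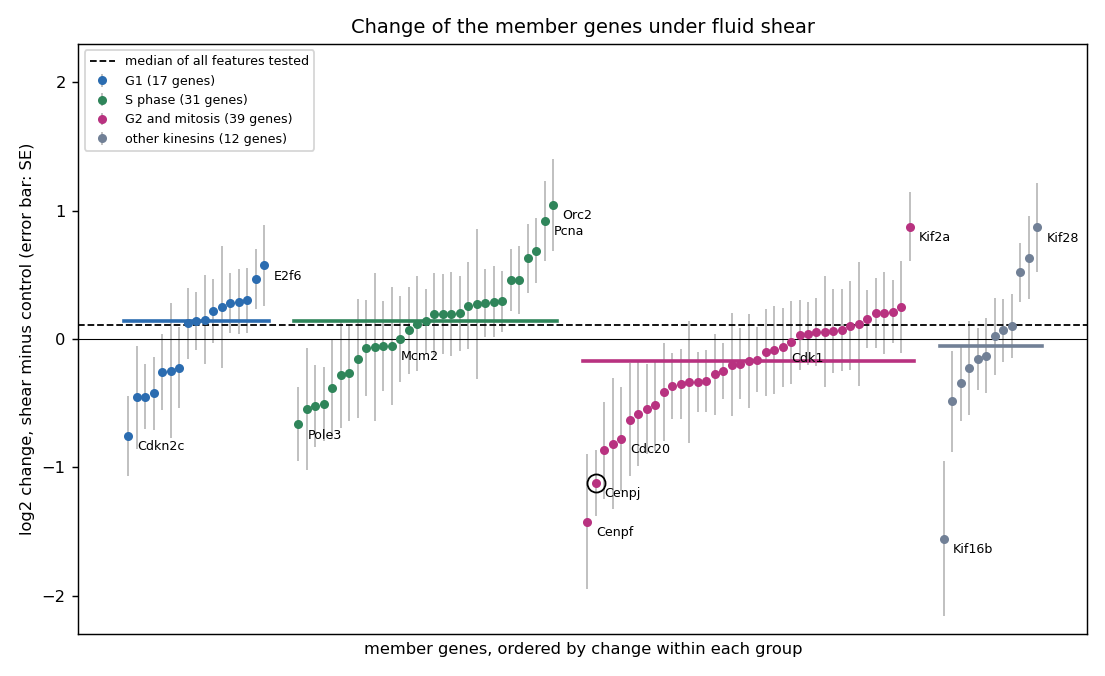
Log2 change, shear minus control (vertical axis), of the 99 tested member genes, ordered within each group. Points are fitted changes, grey bars the SE, coloured lines the group medians, the dashed line the median of all features (0.11), and the ring marks Cenpj, the gene that passed the test. The line of G2 and mitosis lies at -0.17, below the dashed line.

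The same was seen sample by sample only in part. Each gene was set to its own mean, and the median over the genes of a group was taken in each sample. For G2 and mitosis that median ran from -0.24 through 0.14 to 0.35 in the controls and from -0.26 through -0.085 to 0.028 under shear. The groups overlapped, because control 3 read -0.24, next to shear 1 at -0.26. Taken relative to the median of all features in the same sample, it ran from -0.13 through 0.16 to 0.40 in the controls and from -0.37 through -0.21 to 0.069 under shear, again with overlap. For S phase the corresponding ranges were -0.19 to 0.33 and -0.15 to 0.24, so neither group stood above the other. The array of control 3 and 4 was the lowest control array for 22 of the 39 genes of G2 and mitosis (56.4%), against 59.5% of all features. Without it the median of that group was -0.33 and that of all features 0.016, with 30 of 39 genes below 0. Without the array of shear 1 and 2 it was -0.070, with 24 below 0.

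**Figure D3:**
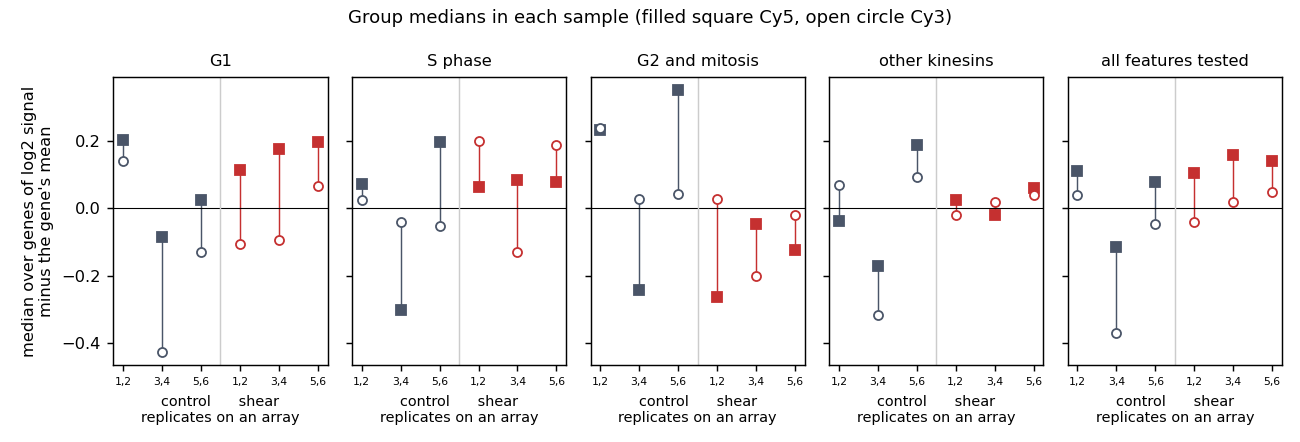
Median over the genes of a group of log2 signal minus the gene's mean (vertical axis) in each sample; filled squares are Cy5, open circles Cy3, and lines join samples of 1 array, controls on the left and shear on the right of each panel. In G2 and mitosis 5 of 6 control points lie above 0 and 5 of 6 shear points below 0.

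In G1, none of the 17 genes passed the test, and changes ran from -0.75 to 0.57. The D cyclin Ccnd1, which partners Cdk4 and Cdk6 as cells answer growth signals, read -0.45, 0.95 and 1.61 (lowest, median and highest) in the controls and -0.25, 1.08 and 2.05 under shear. The groups spanned the same range, and the difference was 0.25 ± 0.48 (SE, n = 6 and 6; limma adjusted p = 0.87; 95% interval -0.77 to 1.26). The E cyclin Ccne1, which drives entry into S phase, differed by 0.29 ± 0.25 (interval -0.25 to 0.83). Cdc25a, the phosphatase that activates Cdk2, differed by 0.30 ± 0.25, and its 5 probes all lay above 0, from 0.30 to 0.83. The second probes of Ccnd1 and Ccne1 turned the other way, to -0.48 and -0.11. Neither Ccne1 nor Cdc25a separated the groups.

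The E2f factors, the transcription factors at the G1 to S transition, lay above 0 for 5 of 6 genes, or 4 of 6 with cyclic loess. In the main analysis 61% of all features lay above 0, and with loess the median of all features was -0.013. E2f3, an activator, read -0.97, -0.68 and -0.36 in the controls and -0.77, -0.14 and 0.23 under shear. E2f6, a repressor that acts without the retinoblastoma protein, read 0.15, 0.35 and 0.97 against 0.41, 1.11 and 1.46. The upper shear samples of both lay above the controls, but the groups overlapped: the differences were 0.47 ± 0.23 and 0.57 ± 0.31, with limma adjusted p = 0.41 and 0.45. E2f7, a repressor of late S phase, was the member below 0, at -0.45 ± 0.40 (adjusted p = 0.68 in limma), with 0.015 on its second probe.

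Among the INK4 inhibitors of Cdk4 and Cdk6, Cdkn2c read 0.42, 1.31 and 2.06 in the controls and 0.17, 0.46 and 0.88 under shear. The higher controls stood above the shear samples, with a difference of -0.75 ± 0.31 (limma adjusted p = 0.29). A second Cdkn2c probe went the other way, by 0.78 ± 0.32, with every shear value above every control value, so the array gives no single direction for this gene. Cdkn2d differed by -0.45 ± 0.25 (limma adjusted p = 0.47). Cdkn1b is not named on the array, and Cdkn1c and E2f8 are on it without a value.

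In S phase, none of the 31 genes passed the test, and the 2 highest changes belonged to Orc2 and Pcna. Pcna, the sliding clamp that holds DNA polymerases on the template, read 1.87, 2.11 and 2.71 in the controls and 2.75, 3.10 and 3.70 under shear. All 6 shear samples lay above all 6 controls. The difference was 0.92 ± 0.31 (SE, n = 6 and 6), 1.9-fold, with an interval of 0.26 to 1.59, and its limma adjusted p of 0.18 did not pass. A second Pcna probe differed by 0.76 ± 0.39, with 1 shear sample among the controls. Over 32 alternatives the Pcna difference ran from 0.69 to 1.09, and its limma adjusted p from 0.0075 to 0.41. It was under 0.05 only in the 2 fits whose errors leave the shared arrays out, so those 2 p-values can be too small.

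All 4 tested genes of the origin recognition complex, which marks where replication starts, lay above 0, also under the 3 other scalings, with a median of 0.54. Of all features, 61% lay above 0 in the main analysis. Orc2 read -1.97, -1.13 and -0.63 in the controls and -0.65, -0.021 and 0.28 under shear, so that 1 shear sample reached the controls. Its difference was 1.05 ± 0.36, 2.06-fold (limma adjusted p = 0.19), and its second probe gave 0.82 ± 0.29. Orc6, singled out after its values were seen, read -0.87, -0.24 and 0.074 against 0.15, 0.24 and 0.69, with no overlap and a difference of 0.63 ± 0.27 (adjusted p = 0.32 in limma). Its 3 probes lay between 0.63 and 0.71.

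The Mcm2 to Mcm7 helicase, loaded by that complex, did not share this. Its 6 genes had a median change of -0.11, with 1 of 6 above 0, against 61% of all features. Cyclic loess left none of the 6 above 0, and put the median of all features at -0.013. Mcm2 read -0.34, 0.39 and 0.89 in the controls and -0.43, 0.20 and 1.00 under shear, a difference of -0.053 ± 0.46 (interval -1.03 to 0.93). Mcm6 read 0.59, 1.65 and 2.38 against 0.16, 1.79 and 2.24, a difference of -0.15 ± 0.46 (interval -1.14 to 0.83). Both spread widely within each group, and the intervals leave room for a change in either direction. For Mcm2 the samples of 1 array lay far apart too, with control 3 at -0.15 and control 4 at 0.89. For Mcm6, Cy3 was above Cy5 on all 6 arrays, by 0.36 on average. Mcm6 averaged 2.37 on the array of control 1 and 2 and 0.30 on that of shear 3 and 4. The array of shear 3 and 4 was the lowest shear array for 4 of the 6 helicase genes and for 31.3% of all features. Without the array of shear 3 and 4, 4 of the 6 lay above 0, with a median of 0.16. The median SD within a group was 0.51 for these 6 genes and 0.37 over all features.

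The polymerases were split. Pole4 and Pole3, small histone-fold subunits that pair in DNA polymerase epsilon, had opposite differences. Pole4 read -0.23, 0.27 and 0.87 in the controls and 0.64, 1.00 and 1.41 under shear, a difference of 0.69 ± 0.26 (limma adjusted p = 0.23), with its second probe at 0.77. Pole3 read 1.82, 2.08 and 2.27 against 0.90, 1.39 and 1.87, a difference of -0.66 ± 0.29 (limma adjusted p = 0.32), while its other probes gave -0.028 and 0.23. Most shear samples stood above the controls for Pole4 and below them for this Pole3 probe, with some overlap in each. Pold1, the catalytic subunit of polymerase delta, differed by -0.52 ± 0.32 (adjusted p = 0.50 in limma). Pold2 had values in 4 controls and 2 shear samples and was not tested, and Cdc7 had none.

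The enzymes that supply nucleotides gave differences in both directions. Rrm2, the regulated subunit of ribonucleotide reductase, read 1.53, 1.78 and 1.97 in the controls and 1.58, 1.89 and 2.48 under shear, 0.20 ± 0.29 apart, and -0.020 with cyclic loess. Tyms, which makes thymidylate, had a value in 5 controls and differed by 0.26 ± 0.34. Tk1, the thymidine kinase of S phase, read 0.18, 1.39 and 1.73 against -0.015, 0.62 and 1.33, and differed by -0.54 ± 0.48, with -0.61 on its second probe. None passed the limma test (adjusted p from 0.68 to 0.82), and the groups overlapped in all 3.

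**Figure D4:**
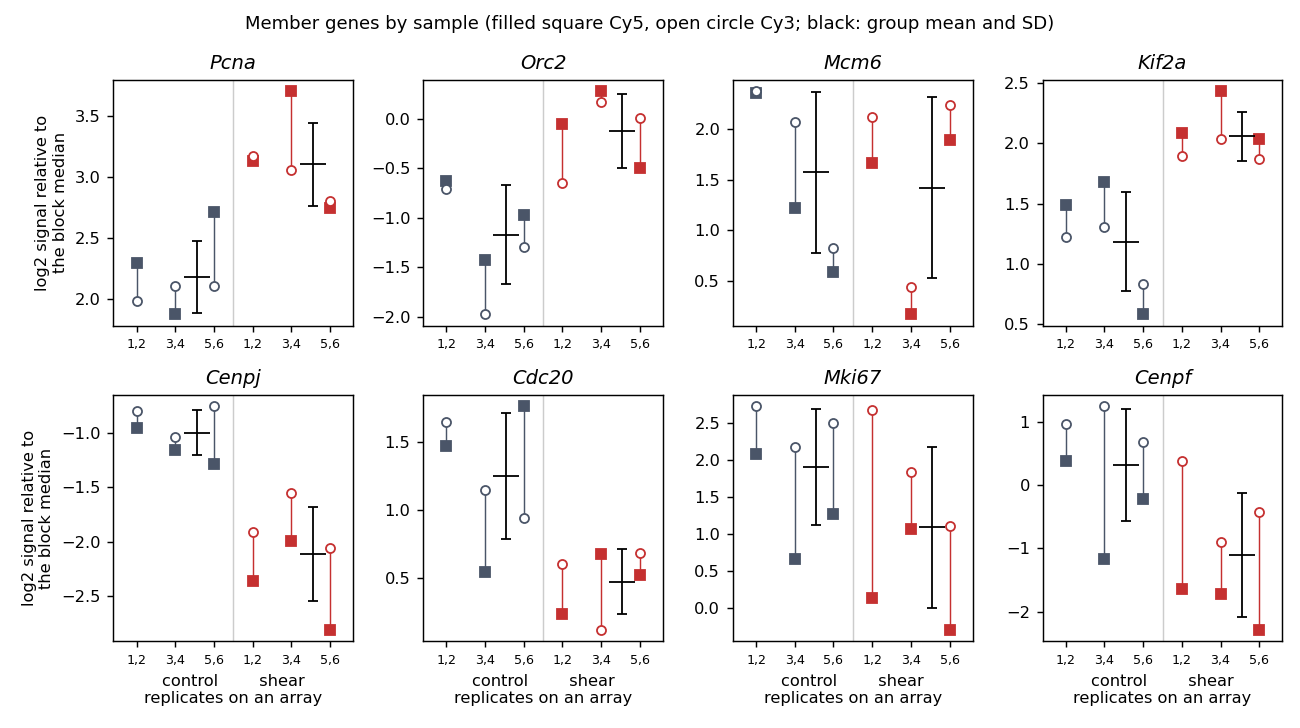
Log2 signal relative to the block median (vertical axis) of 8 member genes in all 12 samples, joined by array; filled squares are Cy5, open circles Cy3, and black bars the group mean and SD (n = 6). Pcna and Kif2a have all shear samples above all controls, and Cenpj has all below. In Mcm6, Cenpj, Mki67 and Cenpf the Cy3 sample is above the Cy5 sample on all 6 arrays.

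In G2 and mitosis, 1 of 39 genes passed the test: Cenpj fell. Cenpj (Entrez gene 219103), named for the centromere but known as the centriole assembly protein CPAP, read -1.28, -0.998 and -0.75 in the controls and -2.81, -2.03 and -1.55 under shear. Every shear sample lay below every control. The change was -1.12 ± 0.26 (SE, n = 6 and 6; interval -1.67 to -0.57), 2.17-fold lower, with a limma adjusted p of 0.046. The signal was dim under shear. In shear 5, at -2.81, it lay below the 5th percentile of that sample's values, -2.57. In the other shear samples it lay above theirs, and without shear 5 the change was -1.04. The alternative that leaves out the dimmest features drops Cenpj. The call is close to the threshold. It was lost when any 1 sample other than control 4 was left out (limma adjusted p from 0.052 to 0.090 without 1 of those 11) and when any of the 6 arrays was left out (0.070 to 0.21). The fit on array means, which counts 3 arrays a group and called 0.462% of all features, gave an adjusted p of 0.11 with limma, and the change itself kept between -1.29 and -0.96 in the 31 alternatives that tested it. Cenpj has 1 tested probe, so no second spot bears on it, and Cy3 was above Cy5 on all 6 of its arrays, by 0.41 on average, with each dye in 3 samples of each group.

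The genes with a Cenp symbol lay below 0 more often than above, 10 of 15 with Cenpj included. In the main analysis 61% of all features lay above 0. With the centring on shared features or with cyclic loess the count was 12 of 15. The median of all features was then -0.017 or -0.013. In the main analysis the median of the 15 genes was -0.19. It was -0.035, with 8 of 15 below 0, without the array of shear 1 and 2, and -0.039, with 12 below 0, when a gene's probes were averaged. Cenpf, a large kinetochore protein of G2 and mitosis, read -1.17, 0.54 and 1.25 in the controls and -2.29, -1.26 and 0.38 under shear. The difference of -1.42 ± 0.52 did not pass (limma adjusted p = 0.22), and a second probe, with a value in 4 shear samples, gave 0.30 ± 0.35. Cenpx, a histone-fold protein that also serves DNA repair, read -0.69, -0.35 and 0.52 against -1.80, -1.06 and -0.66, with a difference of -0.87 ± 0.38 (adjusted p = 0.32 in limma). In both genes the lower samples were mostly those under shear, and the groups overlapped. Cenpq, a kinetochore subunit, stood at the other end with 0.21 ± 0.24.

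The usual proliferation markers gave no call. Mki67, the antigen of dividing cells, read 0.66, 2.13 and 2.72 in the controls and -0.30, 1.08 and 2.68 under shear, a difference of -0.81 ± 0.51 (interval -1.90 to 0.27; limma adjusted p = 0.52). Top2a, the topoisomerase that untangles chromosomes, read 1.16, 1.65 and 2.33 against 0.39, 0.87 and 2.27, a difference of -0.63 ± 0.44 (adjusted p = 0.57 in limma), and its 3 probes lay between -0.65 and -0.60. Shear samples lay at the bottom of both genes, and 1 shear sample, shear 2, lay among the highest. Dye moved with these values: Cy3 was above Cy5 on all 6 arrays for Mki67 (by 1.35 on average), Cenpf (1.44) and Top2a (0.74). A dye difference above 1 was found in 2 of 99 members (2.02%) and in 0.199% of all features. Dye was a term of the fit and balanced between the groups, and its part in the spread of these genes was not tested.

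Cdc20, the activator of the anaphase-promoting complex and singled out after its values were seen, read 0.54, 1.31 and 1.76 in the controls and 0.12, 0.56 and 0.68 under shear. Control 3 was the control that reached into the shear range, and the difference was -0.78 ± 0.40 (limma adjusted p = 0.43). Cdk1, the kinase that starts mitosis, read 1.502, 1.84 and 2.28 against 1.46, 1.78 and 2.12, a difference of -0.063 ± 0.31 (interval -0.72 to 0.60). Its partner Ccna2 differed by -0.28 ± 0.31 (interval -0.95 to 0.40), and Birc5, the survivin subunit of the chromosomal passenger complex, by 0.12 ± 0.48 (interval -0.92 to 1.15). The groups overlapped for all 3, and for Ccna2 shear 1 (1.66) and shear 2 (2.10) lay below every control (2.49 to 3.16). Ccnb1 is not named on the array, Cenpk had no value, and Plk1 had values in 6 controls (0.79 to 3.04) but in 2 shear samples (2.69 and 2.78), too few to test.

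Kif2a, a kinesin that takes microtubules apart at the spindle poles and also acts outside mitosis, was the highest gene of this group. It read 0.58, 1.27 and 1.68 in the controls and 1.87, 2.04 and 2.44 under shear, with no overlap. The difference was 0.88 ± 0.27, 1.83-fold (limma adjusted p = 0.14, and from 0.011 to 0.38 over the alternatives). Only the 2 fits whose errors leave the shared arrays out gave Kif2a an adjusted p under 0.05. Kif20a, which acts in cytokinesis, differed by 0.25 ± 0.36, while its other probes gave -0.79 and -0.31. Over the 10 mitotic kinesins the median was -0.13, with 6 below 0, while 61% of all features lay above 0.

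The changes were also counted by the promoter elements shown above. Of the 20 tested genes of G2 and mitosis whose promoter holds both a CHR and a CCAAT, 15 lay below 0, with a median of -0.18. Of the 16 whose promoter does not, 9 lay below 0, with a median of -0.15. Among all 485 named genes with both elements, 42.9% lay below 0, against 38.9% of the 6640 without. In S phase, 7 of 12 genes with an E2F element lay below 0 and 5 of 16 without one, and all 3 genes with a CHR and a CCAAT lay below 0 against 9 of 25 without. In G2 and mitosis, 6 of 7 genes with an E2F element lay below 0 and 18 of 29 without. G1 went the other way, with 0 of 3 genes with an E2F element below 0 against 6 of 10, and 0 of 2 with a CHR and a CCAAT against 6 of 11. These are small counts with no test.

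The other kinesins, motors that mostly carry vesicles and organelles along microtubules, gave no call among 12 genes. Kif16b, which moves early endosomes, had the lowest change of all members: it read -0.51, 0.16 and 1.46 in the controls and -2.25, -1.24 and -0.32 under shear. The groups met through control 4 and shear 2, and the difference was -1.55 ± 0.61, 2.94-fold (limma adjusted p = 0.26, and from 0.013 to 0.51 over the alternatives). Only the 2 fits whose errors leave the shared arrays out gave Kif16b an adjusted p under 0.05. Kif1b, which carries mitochondria and synaptic vesicle precursors, read -1.56, -1.42 and -1.22 against -1.12, -0.89 and -0.62, with no overlap and a difference of 0.52 ± 0.23 (adjusted p = 0.32 in limma). Kif5b, the ubiquitous kinesin heavy chain, differed by 0.63 ± 0.32, and its 4 probes all lay above 0, from 0.23 to 0.89. Kif28, with a value in 4 controls, differed by 0.87 ± 0.35 (limma adjusted p = 0.28), and by 0.74 in the fit on array means. Controls 2 and 4, both Cy3, had no value for it. Control 3, at -2.80, lay below the 5th percentile of that sample's values, -2.59. Kif7, a part of Hedgehog signalling in the cilium, and Kif3a, a motor that builds cilia, differed by -0.48 ± 0.39 and -0.34 ± 0.30. Kif1a and Kif21b had too few values to test.

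Spots of the same gene limited how far any of these values can be read. Of the 56 genes with several tested probes, all probes had the same sign in 28. The median range between a gene's probes was 0.37 on the log2 scale, and over these genes the first 2 probes correlated with a Pearson coefficient of 0.35, against 0.41 over 4049 named genes of the array. The next 4 genes were singled out after their values were seen. Kif22, a chromosome arm motor, had 7 probes below 0, from -0.84 to -0.098, and E2f4 had 4 above 0, from 0.15 to 0.85. Rfc1, with 4 probes, ran from -0.66 to 0.45, and Ccnd2, with 6, from -0.27 to 0.49. Tested one by one, 1 probe of the 197 passed, that of Cenpj (limma adjusted p = 0.043), against 1.62% of all probes.

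**Figure D5:**
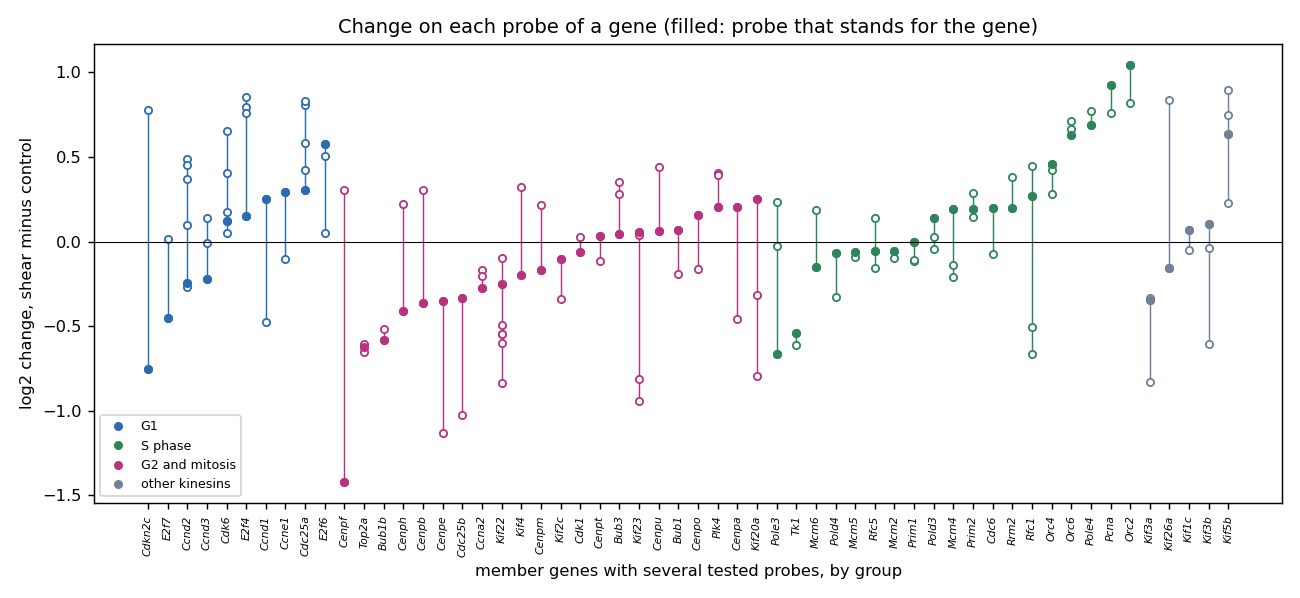
Log2 change, shear minus control (vertical axis), on each tested probe of the 56 member genes with several probes; a filled point is the probe that stands for the gene and a line joins a gene's probes. Cdkn2c and Cenpf have probes on both sides of 0, while the probes of Orc2, Orc6 and Pcna all lie above 0.5.

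Beyond the members, 96 further genes of the same pathways were read from the same fit, and 82 were tested. The list gave 2 calls, both higher, where 1.28% of all features were called higher. Of the 82 changes 41 lay below 0, with a median of 0.0024, against 61% of all features above 0 and a median of 0.11. Myc, the transcription factor that drives growth into the cycle, rose: it read between 0.66 and 1.51 in the controls and between 2.61 and 3.25 under shear, a change of 1.85 ± 0.28 (limma adjusted p = 0.0048). Zwint, a kinetochore protein, rose as well, from between 0.71 and 1.45 to between 2.26 and 3.48, by 1.74 ± 0.32 (limma adjusted p = 0.016). Neither gene's groups overlapped, as in the 5.76% of all features with every shear value above every control. At the other end were the checkpoint kinase Chek2, measured in 5 controls, with a difference of -0.98 ± 0.30 (limma adjusted p = 0.14), and the condensin subunit Smc4 with -0.80 ± 0.36 (adjusted p = 0.34 in limma). Of the 46 tested mitotic genes of this list 28 lay below 0, and of the 15 pocket proteins and kinase regulators 3 did.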

How the data were processed

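RNA of 6 control and 6 shear samples was measured on 6 spotted 2-colour arrays. The deposited values are log2 values made by the authors. In 576 of 576 combinations of block and sample, they equal a whole-number fluorescence divided by the median of its block of 598 features, within 0.002 of a whole number. How spots were scanned, corrected and left without a value is not given in the sources used here. Symbols came from the platform annotation (1 symbol for 18511 probes), 18267 of them updated by Entrez number.

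In limma (version 3.58.1, under R 4.3.3, with the data.table package, 1.17.8), each gene was read on its most often measured probe (ties by mean signal), beside all unnamed probes. Features measured in fewer than 4 of the 6 samples in a group were dropped. The fit had group and dye as terms and the inferred array as a random block (correlation 0.74), with Benjamini-Hochberg adjustment over 15601 features and a threshold of 0.05. Each array holds 1 group, so p-values that count 12 samples can be too small. The fit was also run on simulated data with the same array correlation for every feature and no dye effect. That run cannot show how the p-values hold where arrays depart from this model. Named are the called members, the 3 highest, 3 lowest and 3 smallest p of each group, 15 usual markers, and of the other pathway genes those called and the 2 highest and 2 lowest. Orc6, Cdc20, Kif22, E2f4, Rfc1 and Ccnd2 were added after their values were seen. Members and lists were chosen with earlier results of these data known. Motifs and plots used Python 3.11.15, pandas 2.3.3, numpy 2.4.6 and matplotlib 3.10.9. The number of arrays limits the precision.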

Additional observations from a re-analysis of the deposited data

Results flagged for a closer look

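A further spot of Ccnd2, the D2 cyclin of G1, had a value in 3 shear samples and in no control, with a mean of -3.50 on the log2 scale relative to the block median. It drew attention because the signal was found under shear and not in the controls. The 5th percentile of a sample's values lay between -2.87 and -2.18, so these 3 values are among the dimmest on their arrays, and the spot had too few values to be tested. The 6 tested probes of Ccnd2 had changes from -0.27 to 0.49. No sample stood apart by Dixon's criterion in the 70 groups of values tested for the named members. Samples of the same array resemble each other, so this criterion can miss an array whose samples stand apart together.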

How the results depend on the processing

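Of 32 alternatives, 10 of the 31 that tested Cenpj kept its call. The count of member genes called was 12 with no array block and 10 with the replicate block, whose errors leave the shared arrays out. It was 0 with each array averaged, with no dye term, with the replicate block and the array block together, with quantile normalization and with the dimmest 25% of features left out, which drops Cenpj. It ran from 0 to 1 without 1 sample and was 0 without any 1 array. Of the features tested, 1.49% were called in the main analysis, 11% with no array block, 0.462% with each array averaged, 2.35% with no dye term, 9.3% with the replicate block, 0.641% with both blocks, 0.853% with quantile normalization and 1.62% with every probe. The share ran from 0.688% to 1.54% without 1 sample. It was 0.82%, 0.752% and 0.583% without the control arrays and 0.761%, 0.245% and 0.448% without the shear arrays, in order of replicate. A fit that left out an array needed a value in 3 samples of each group. Of the main calls 200 were higher and 32 lower, against 164 and 75 with centring on the features measured in all samples and 165 and 74 with cyclic loess. The sample titles link the groups only by replicate number, and same-numbered samples carry the same dye. With each feature's group mean taken off, their correlations ran from -0.091 to 0.12, and only replicate 1 matched its own number best. Correlations of single samples cannot show whether arrays of the groups were paired, and the replicate block does not test a pairing.

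The group medians moved by less than the spread between samples, except to -0.044 for G1 and -0.020 for S phase with cyclic loess and to 0.099 for the other kinesins without control 2. That of the other kinesins ran from -0.10 to 0.099 without 1 sample. Of 35 named genes, 24 kept their direction under every alternative that tested them, and the other 11 were never called where they turned. Birc5 turned to -0.018 with the other centring, -0.038 with loess, and -0.17 and -0.017 without the arrays of control 1 and 2 and of shear 5 and 6. Rrm2 turned to -0.020 with loess and -0.0061 without the array of shear 5 and 6. Means of a gene's probes turned Cdkn2c to 0.012, Kif20a to -0.29 and Mcm6 to 0.019, since its probes differ. Without the array of control 1 and 2, Cdk1 was 0.019, Kif7 0.060, Mcm2 0.15 and Mcm6 0.25. Without that of control 3 and 4, Ccnd1 was -0.18, and without that of control 5 and 6, Kif20a was -0.10. Leaving out the array of shear 1 and 2 gave Ccna2 0.044, Ccnd1 -0.21 and, on another probe, Cenpf 0.30. Leaving out that of shear 3 and 4 gave Cdk1 0.039, Mcm2 0.24 and Mcm6 0.41, and that of shear 5 and 6 gave, on another probe, Cdk1 0.18. Without 1 sample the lowest and highest were -0.038 and 0.28 for Birc5, -0.18 and, on another probe, 0.12 for Cdk1 and -0.21 and 0.081 for Mcm2. Except for the filter and the probe choice, the cause was not tested.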
